A study of Homo sapiens with 2 samples.

Results

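The genes described here are 10 regulators of the integrated stress response and the unfolded protein response: ATF6, XBP1, ATF4, CEBPB, DDIT3, ATF3, TRIB3, ASNS, PPP1R15A and HERPUD1. They were chosen as the array features whose platform symbol, updated to the current name, was one of these 10, and all 10 were found among 12445 named genes on the array. Each was measured by 1 probe, so no second probe checks any of them. The RNA came from the human cell line KYSE-170, which was established from a squamous carcinoma of the oesophagus. One culture had been transfected with an oligoribonucleotide for miR-210, a microRNA induced by hypoxia, and the other with one called ncRNA, which is not further described in the labels and serves as the comparison arm. Both were delivered with the Hiperfect reagent, and the time between transfection and RNA extraction is not given in the sources used here. There was 1 array per transfection, so every difference below is a single value with no replicate check, and no p-value is given. Differences were ordered by size only.

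Cells sense misfolded protein in the endoplasmic reticulum (ER) through the kinase PERK (EIF2AK3), the kinase and nuclease IRE1 (ERN1) and the membrane-bound factor ATF6. PERK and the related kinases that sense amino acid shortage, haem deficiency or double-stranded RNA phosphorylate the alpha subunit of eIF2, which slows translation in general and favours translation of the ATF4 mRNA. IRE1 splices the XBP1 mRNA, and cleaved ATF6 enters the nucleus as a transcription factor. Much of the activity of ATF4, ATF6 and XBP1 is thus set after transcription, which an array of transcript levels does not read.

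The labels name miR-210 without its arm. The RefSeq mature sequences of both arms (GRCh38.p14, chr11, minus strand) are shown because the 3p arm is the one usually called miR-210. Capitals mark the seed, bases 2 to 8, through which a microRNA pairs with its targets.
hsa-miR-210-3p: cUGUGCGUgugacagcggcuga
hsa-miR-210-5p: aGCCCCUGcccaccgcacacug

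The promoters below are shown because their letters match elements known from stress-induced genes. RefSeq promoters of 300 bases, with 250 bases before and 50 after an annotated start (GRCh38.p14), were held for all 10 genes, 18 promoters in all. Both strands were searched for 4 motifs: the C/EBP-ATF response element bound by ATF4 (TGATGNAA), the ER stress element (CCAAT and CCACG with 9 bases of any kind between them), the ER stress element II (ATTGGNCCACG) and the cyclic AMP response element (TGACGTCA). No match of one motif overlapped a match of another in the promoters printed. Capitals mark the matches, and each sequence runs 5′ to 3′ on the strand of the gene.
XBP1, chr22:28800520-28800819, minus strand: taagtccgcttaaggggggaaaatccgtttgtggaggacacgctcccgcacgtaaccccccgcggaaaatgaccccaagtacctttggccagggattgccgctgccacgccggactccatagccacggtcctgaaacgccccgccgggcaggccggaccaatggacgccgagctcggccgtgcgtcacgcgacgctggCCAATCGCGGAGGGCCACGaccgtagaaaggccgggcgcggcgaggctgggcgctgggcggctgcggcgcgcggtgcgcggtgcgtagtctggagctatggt
ATF3, chr1:212565157-212565456, plus strand: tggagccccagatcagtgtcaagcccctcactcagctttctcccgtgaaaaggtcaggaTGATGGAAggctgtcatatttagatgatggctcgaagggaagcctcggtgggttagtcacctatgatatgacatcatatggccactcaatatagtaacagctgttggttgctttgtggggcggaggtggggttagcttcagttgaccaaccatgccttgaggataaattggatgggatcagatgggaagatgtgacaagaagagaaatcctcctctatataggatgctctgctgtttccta
ASNS, chr7:97872359-97872658, minus strand: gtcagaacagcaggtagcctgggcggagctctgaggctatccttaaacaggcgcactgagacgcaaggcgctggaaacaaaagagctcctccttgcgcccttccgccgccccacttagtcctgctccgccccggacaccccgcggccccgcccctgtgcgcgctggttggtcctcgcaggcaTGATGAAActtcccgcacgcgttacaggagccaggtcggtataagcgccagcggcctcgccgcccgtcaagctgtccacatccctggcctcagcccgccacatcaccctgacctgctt
HERPUD1, chr16:56931892-56932191, plus strand: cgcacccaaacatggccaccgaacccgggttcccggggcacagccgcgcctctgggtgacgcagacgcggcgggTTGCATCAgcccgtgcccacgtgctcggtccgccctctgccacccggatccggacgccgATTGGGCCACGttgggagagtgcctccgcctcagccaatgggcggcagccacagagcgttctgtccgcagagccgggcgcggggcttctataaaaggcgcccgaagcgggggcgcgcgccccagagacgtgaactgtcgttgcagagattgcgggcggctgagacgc
The ER stress element of XBP1 begins 52 bases before the start and was found in 0.0769% of all 35116 promoters. The ER stress element II of HERPUD1 begins 117 bases before the start and was found in 0.0541% of them. The C/EBP-ATF element, which 3.62% of promoters held, lies 68 bases before the start in ASNS, 191 at one of 2 annotated starts of ATF3 and, on the opposite strand, 176 in HERPUD1. PPP1R15A held a cyclic AMP response element 58 bases before its start, a motif in 1.85% of promoters. The other 13 promoters of these genes held none of the 4 motifs in this window. A match describes the letters only.

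The deposited values are fluorescence intensities, treated here as background-subtracted because some lie under 0. They were taken to log2 and quantile normalized, and each log2 ratio is miR-210 over ncRNA, so that positive values are higher with miR-210. A level filter at the median probe, which corresponds to an intensity of 37.5 over both arrays, decided which genes were kept. This left 6684 genes, including 9 of these 10. PPP1R15A fell just under the filter. The miR-210 array had a median intensity of 36 and the ncRNA array 39. Where a gene had more than 1 kept probe, single probes scattered around their gene with an SD of 0.44 on the log2 scale. That spread between probes is the only error available, and it leaves out differences between cultures and arrays. Without between-array normalization the median gene stood at -0.12 in place of 0.01.

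Of the squamous epithelial markers 9 of 10 measured genes passed the filter, where 6684 of all 12445 named genes did. Their median log2 ratio was 0.43, with KRT17, KRT5 and PKP1 at 1.01, 0.90 and 0.80 and PERP and SFN at -0.80 and -0.57. Of the 9 kept markers 7 stood above 0 and 2 under it. The summed deposited intensity over the 10 measured markers, before normalization, was 12088 with miR-210 and 16357 with ncRNA. SFN alone gave 7094 and 12693 of these sums, and its fall was larger than that of the whole sum. The lower sum with miR-210 thus rests on SFN. The basal factor TP63 did not pass, at 22 with miR-210 and 57 with ncRNA. The part of this marker shift in the results below was not tested. Of fibroblast markers 4 of 8 passed, of endothelial markers 3 of 7 and of leukocyte markers 1 of 7. The summed intensities over the measured genes of these 3 lists were 419, 379 and 222 on the miR-210 array and 423, 373 and 219 on the ncRNA array. The brightest were DCN (181 with miR-210, 183 with ncRNA), ESAM (145 and 100), CD79A (126 and 133) and VWF (103 and 126), all above the array medians. COL1A1, PECAM1 and PTPRC, chosen after their values were seen, were under them, at 16, 9 and 10 on the miR-210 array and 21, 21 and 9 on the ncRNA array.

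Among the 9 kept genes only ATF3 was at least 2-fold apart, on a background of 6.21% of the 6684 genes (3.02% higher and 3.19% lower). At 1.5-fold, ATF3 was higher and TRIB3 lower, where 11.9% of all kept genes were higher and 10.8% lower. With 1 gene in each direction, neither count can be read as a property of the group. The median log2 ratio of the 9 was -0.06, beside 0.01 for all kept genes, with 4 genes above 0 and 5 under it. Leaving ATF3 aside, the other 8 lay between -0.68 and 0.40, with a median of -0.14. Genes of the group thus stood on both sides of 0. From the spread between probes, a difference between 2 genes has an SD of 0.62. Of the 28 pairs without ATF3, 0 were farther apart than 2 such SDs, 1.24, and of the 8 pairs with ATF3, 5 were. ATF3 was set aside because it lay farthest from 0 in these same data, which by itself narrows the spread of the rest.

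**Figure D1:**
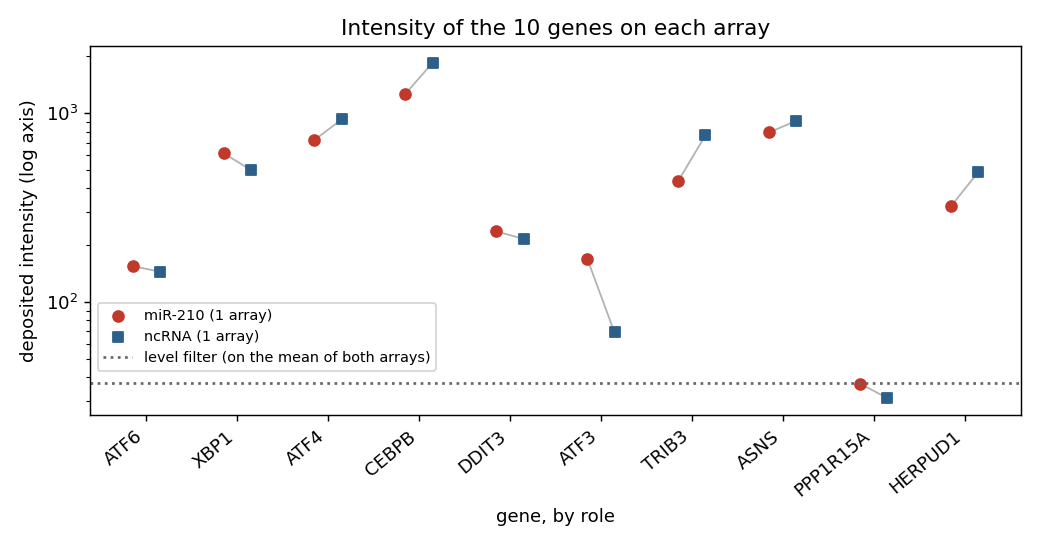
Deposited intensity (log axis) of the 10 genes, ordered by role, on the miR-210 array (circles, left of each pair) and the ncRNA array (squares, right), 1 array each, with the level filter of 37.5 as a dotted line. ATF3 has the widest gap, 170 against 69, and PPP1R15A lies at the filter.

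The sensors' own transcription factors differed little. ATF6, the ER-membrane factor that induces chaperone genes once cleaved, read 155 on the miR-210 array and 145 on the ncRNA array. Its log2 ratio was 0.21, and 64.1% of kept genes lay at least as far from 0. XBP1, whose spliced form drives genes of ER folding and degradation, read 614 with miR-210 and 502 with ncRNA. That is a log2 ratio of 0.40, or 1.32-fold higher with miR-210, and within the spread between probes of 0.44. The annotation used here does not say whether the probe separates spliced from unspliced XBP1 mRNA. Both genes stood above 0, and neither lay farther from it than a single probe does from its gene.

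ATF4 and its dimer partner were both on the lower side. ATF4, the central activator of amino acid synthesis and import genes in this response, read 722 on the miR-210 array and 929 on the ncRNA array, a log2 ratio of -0.22. CEBPB, a C/EBP family factor that pairs with ATF4 and also acts in inflammation and epithelial differentiation, read 1268 with miR-210 and 1854 with ncRNA. Its log2 ratio was -0.37, or 1.29-fold lower. Differences of the size seen for ATF4 were exceeded or matched by 63.3% of kept genes, and those of CEBPB by 42.3%. Neither was past the spread between probes.

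DDIT3 encodes CHOP, a C/EBP-like factor induced by ATF4 that promotes cell death under prolonged stress. It read 237 on the miR-210 array and 216 on the ncRNA array, a log2 ratio of 0.24, and 59.3% of kept genes lay at least as far from 0. ATF4 and DDIT3 thus had opposite signs, 0.46 apart on the log2 scale, which is under the SD of a difference, 0.62.

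ATF3, a stress-induced bZIP factor that is a target of ATF4 and in turn limits the transcription of other stress genes, was the one gene of the group with a wide difference. Its intensity was 170 on the miR-210 array and 69 on the ncRNA array, a log2 ratio of 1.41 or 2.66-fold higher with miR-210. It ranked 58 from the highest of 6684 genes, and 1.94% of kept genes lay at least as far from 0. Both values were above the medians of their arrays. The next highest gene of the group was XBP1, 1.01 lower on the log2 scale, a gap under 2 SDs of a difference, 1.24. The gaps to DDIT3 and ATF6 were also under it. Those to ASNS, ATF4, CEBPB, HERPUD1 and TRIB3 were past it, from 1.47 to 2.09. ATF3 was at least 2-fold higher under every setting that kept it, with log2 ratios between 1.29 and 1.41. Lifting the filter or averaging over probes could not change the ratio of a gene with 1 probe. The filter at the 75th percentile of level removed it.

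The kept genes nearest to ATF3 over the 2 normalized log2 intensities were NHLRC2 (161 with miR-210, 69 with ncRNA), GEM (172 and 73 in the same order) and LPAR3 (158 and 72). Their log2 ratios were 1.33, 1.35 and 1.24. With only 2 arrays this is a likeness of 2 numbers per gene.

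**Figure D2:**
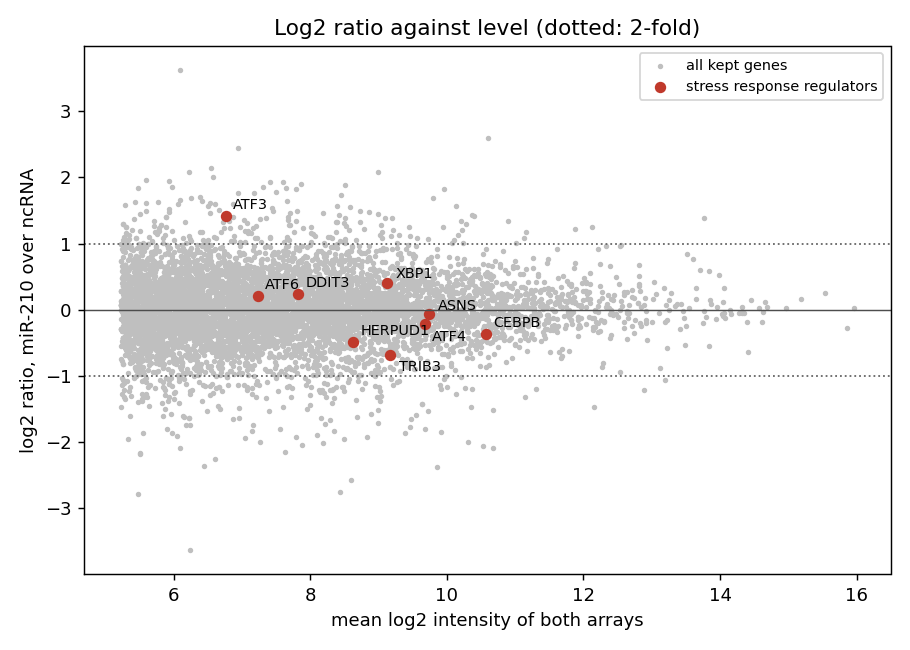
Log2 ratio of miR-210 over ncRNA (vertical) against the mean log2 intensity of both arrays (horizontal) for the 6684 kept genes in grey and the 9 kept stress response regulators in red. ATF3, at 1.41, lies past the dotted 2-fold line, and the other 8 lie between -0.68 and 0.40 within the cloud of all genes.

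TRIB3 was the lowest of the group. It encodes a pseudokinase that is induced by ATF4 and CHOP and dampens their activity and that of AKT. It read 437 with miR-210 and 765 with ncRNA, which is 1.60-fold lower with miR-210 (log2 ratio -0.68). That exceeded the spread between probes, but 17.2% of kept genes lay at least as far from 0. TRIB3 and ATF3, both targets of ATF4, were 2.09 apart on the log2 scale, the widest gap in the group and past 2 SDs of a difference, 1.24.

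ASNS, the asparagine synthetase and a standard reporter of ATF4 activity was nearly level. It read 792 on the miR-210 array and 914 on the ncRNA array, a log2 ratio of -0.06, and 89.0% of kept genes lay at least as far from 0.

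PPP1R15A encodes GADD34, which brings protein phosphatase 1 to eIF2 and so ends the translational block. It read 37 on the miR-210 array and 31 on the ncRNA array, both near the median of all probes. With the level filter lifted its log2 ratio was 0.36, from values too dim to rank among the kept genes.

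HERPUD1, an ER membrane protein of the degradation machinery and a target of ATF6, XBP1 and ATF4, read 322 on the miR-210 array and 488 on the ncRNA array. Its log2 ratio of -0.49, or 1.41-fold lower, was just past the spread between probes, and 30.1% of kept genes lay at least as far from 0. HERPUD1 and XBP1, the 2 genes of the group whose promoters carry an ER stress element of either kind, had opposite signs. Their gap of 0.89 was under 2 SDs of a difference, 1.24. The 3 genes with a C/EBP-ATF element, ATF3, ASNS and HERPUD1, stood at 1.41, -0.06 and -0.49. Over all kept genes with that element in a promoter, 164 in number, the median was 0.05. Past 2-fold were 5 on the higher side and 4 on the lower, where 3.02% and 3.19% of all kept genes were.

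The wider pathway was described through lists from which these 10 genes were left out. The list of sensors and the eIF2 branch had 17 of 20 measured genes past the level filter. Its median was -0.05, and -0.21 without between-array normalization, where all kept genes stood at -0.12. Past 2-fold was 1 gene in each direction, both of them subunits of eIF2. Over all kept genes the shares were 3.02% higher and 3.19% lower. EIF2S1, the alpha subunit that the stress kinases phosphorylate, read 148 on the miR-210 array and 58 on the ncRNA array, a log2 ratio of 1.46. EIF2S3, the gamma subunit, which binds GTP, read 304 on the miR-210 array and 834 on the ncRNA array, a log2 ratio of -1.32. EIF2S2, the beta subunit, read 4994 with miR-210 and 6056 with ncRNA, or -0.05; it was named after its value was seen. Each subunit had 1 kept probe. The next farthest were EIF2B4, of the exchange factor for eIF2, at 0.70 and TRAF2, an adaptor of IRE1, at 0.61. PERK itself (EIF2AK3) stood at -0.14, with intensities of 163 with miR-210 and 194 with ncRNA, and IRE1 (ERN1) fell under the filter at 45 and 30.

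Of the targets of ATF4 and CHOP, 32 of 36 measured genes passed the filter, 24 of them above 0 and 8 under it. Over all 6684 kept genes, 3358 stood above 0 and 3250 under it. The median of the list was 0.25, beside 0.01 for all kept genes. Past 2-fold were 3 genes on the higher side and 1 on the lower, where 3.02% and 3.19% of all kept genes were. The median of the 9 kept squamous markers was 0.43, and a link between the 2 shifts was not tested. GPT2, an alanine aminotransferase, read 561 on the miR-210 array and 204 on the ncRNA array, or 2.96-fold higher. VLDLR, a lipoprotein receptor, was 2.66-fold higher (93 with miR-210, 38 with ncRNA), and SLC1A4, a neutral amino acid transporter, was 2.12-fold higher (61 and 31). The ncRNA values of VLDLR and SLC1A4 lay under the array median of 39. The log2 ratio of SLC1A4 was 0.98 without between-array normalization and 0.88 with an offset of 10, both under 2-fold. NDRG1, which hypoxia also induces, was 2.17-fold lower (48 and 112) and just under 2-fold, at -0.98, with the offset. The median of this list was 0.08 without between-array normalization, where that of all kept genes was -0.12. Over all settings the list median lay between 0.08 and 0.25.

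The ER targets of ATF6 and XBP1 had 18 of 20 measured genes past the filter, 10 above 0 and 8 under it, with a median of 0.27. That median was 0.12 without between-array normalization, where all kept genes stood at -0.12. It was 0.15 as a mean over probes, where the second kept probe of TXNDC5, a protein disulphide isomerase, read -0.20 beside 0.37 for the brighter one. Past 2-fold were 2 genes, both higher with miR-210, where 3.02% of all kept genes were higher and 3.19% lower. DNAJB9, an ER co-chaperone, was 2.26-fold higher (480 with miR-210, 229 with ncRNA) and SEC63, of the protein translocation channel, 2.16-fold higher (987 and 497), though only 1.99-fold without between-array normalization. SSR3 and SDF2L1 were the lowest, at -0.80 and -0.75. HSPA5, the ER chaperone BiP and the standard reporter of the unfolded protein response, read 224 on the miR-210 array and 305 on the ncRNA array, a log2 ratio of -0.33. In the list of ER-associated degradation genes, to which HERPUD1 belongs by function, 13 of 15 passed, with a median of -0.01. None was 2-fold apart, where 6.21% of all kept genes were. DERL2, DERL1, AUP1 and UBE2J1 stood at 0.97, 0.57, 0.48 and -0.42.

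**Figure D3:**
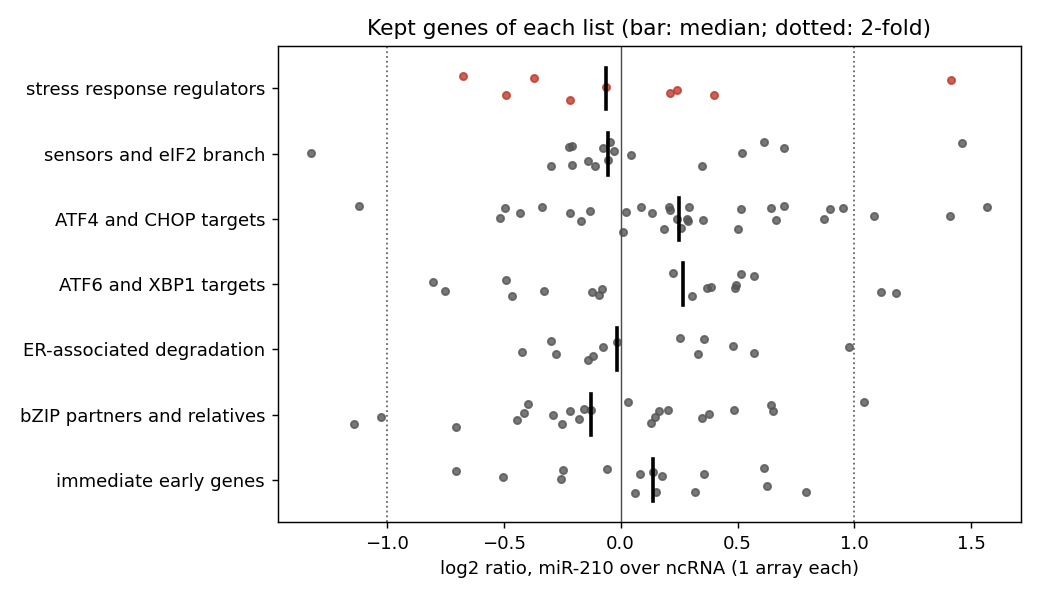
Log2 ratio of miR-210 over ncRNA for each kept gene (points) of the stress response regulators and of the 6 lists, 1 array per transfection, with the median of each as a black bar and dotted lines at 2-fold. The medians lie between -0.13 and 0.27, and every list has genes on both sides of 0.

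ATF3, ATF4, DDIT3, CEBPB, XBP1 and ATF6 are bZIP factors, which bind DNA as pairs. Of their relatives and partners, 23 of 32 measured genes passed the filter. The median was -0.13, and -0.24 without between-array normalization, where all kept genes stood at -0.12. Past 2-fold lay 1 gene on the higher side and 2 on the lower, where 3.02% and 3.19% of all kept genes were. CREM, a cyclic AMP response factor, was 2.20-fold lower (99 with miR-210, 235 with ncRNA), and NFE2L1, which induces proteasome genes, was 2.03-fold lower (226 and 495), with a log2 ratio of -0.99 when the offset was added. FOS was 2.05-fold higher (71 and 37), but 1.92-fold without between-array normalization and at a log2 ratio of 0.87 with the offset. CREB3L4 stood at -0.70.

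**Figure D4:**
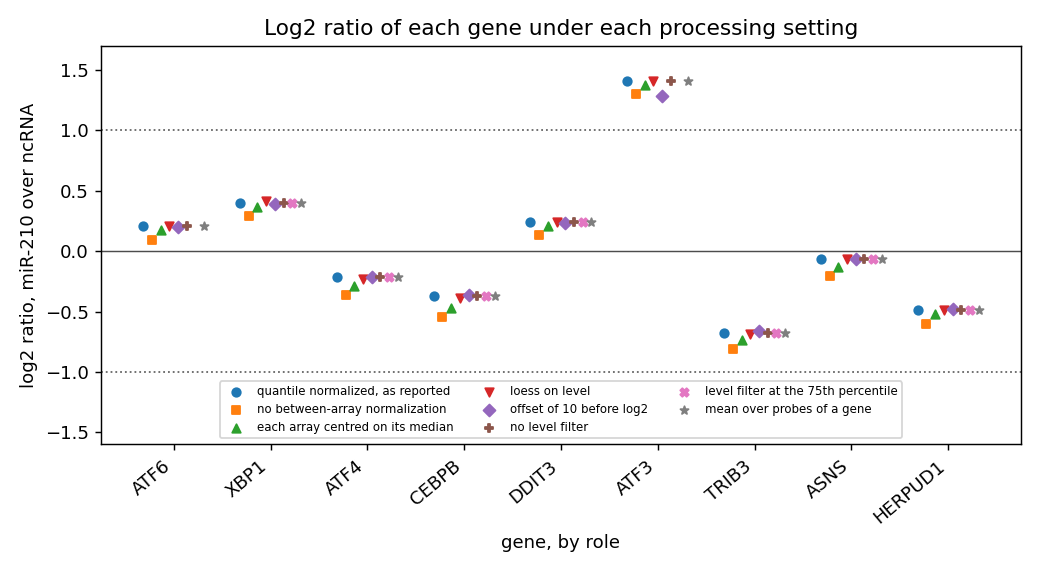
Log2 ratio of miR-210 over ncRNA for the 9 kept genes (horizontal, by role) under quantile normalization and the 7 alternatives (marker shapes), with dotted lines at 2-fold. Each of the 9 keeps its sign throughout, and ATF3 lies between 1.29 and 1.41 wherever it is kept. The filter settings and the mean over probes cannot change these ratios.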

How the data were processed

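Per the labels' protocols, aminoallyl-cRNA made from 500 ng of total RNA carried Cy5 as its only dye and was put on a Toray oligonucleotide chip, 1 array per transfection. The deposited table holds intensity values for 24267 probes, from -8 to 65496. Because some values lie under 0, the table was treated as background-subtracted, though the sources do not describe such a step. Which scanner or normalization the authors used is not given in the sources used here. Groups came from the sample titles.

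Values above 0 on both arrays (24177 probes) were taken to log2 and quantile normalized (numpy 2.4.6, scipy 1.17.1). Probes whose mean log2 level reached the median were kept (12090), and a gene took its brightest kept probe. Names came from the platform annotation: 13395 probes had 1 symbol, 10872 none and none several. Of 12474 symbols, 2285 were updated through an unambiguous RefSeq synonym and 113 matched no current symbol. The procedure was tested on simulated data. With 1 array per group no test is possible, and the number of arrays limits the precision. All 10 members were named, the 4 kept genes of each list farthest from 0, the reporters HSPA5, DNAJB9, EIF2AK3 and ERN1, and the 3 nearest neighbours of the farthest member. Genes named outside this rule include EIF2S2, EGR1, SFN, TP63, TXNDC5 and the FOS and JUN families apart from FOS. The members and lists were chosen with earlier results of these data known. The search for promoter motifs was chosen after the data were seen. Alternatives were no between-array normalization, median centring, loess on level, an offset of 10, no level filter, a filter at the 75th percentile, and the mean over probes.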

Additional observations from a re-analysis of the deposited data

How the results depend on the processing

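No single setting moved a log2 ratio of the 9 kept stress regulators by as much as the spread between probes of 0.44, over 61 values, and each of the 9 kept its sign. The changes of level filter and the mean over probes could not move these ratios. Each regulator had 1 probe, and the filter was applied after normalization. Only the normalization settings and the offset bear on this result. ATF3 was the 1 regulator at least 2-fold apart in all settings but the filter at the 75th percentile, which removed ATF3 and ATF6 and left 0 of 7 (n = 1 array per group). Among all genes, 415 were at least 2-fold apart, against 1736 of 12405 with no level filter and 192 of 3467 at the 75th percentile, where more and fewer genes were counted. Without between-array normalization the split was 140 higher and 318 lower, so 30.6% of these genes were higher in place of 48.7%. The regulators' median lay between -0.22 and 0.07 over the alternatives, and was above 0 only with no level filter, which added PPP1R15A. Depth does not apply to array intensities; signal near background limits PPP1R15A and the dim side of VLDLR, SLC1A4 and FOS. No paired analysis was possible because there was 1 array per group.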

Other observations

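Immediate early and other acutely stress-induced genes, with which ATF3 is often grouped, had 15 of 19 measured genes past the level filter. None of the 15 was at least 2-fold apart, where 6.21% of all kept genes were. The median log2 ratio of the list was 0.14, and -0.05 without between-array normalization, where all kept genes stood at -0.12. Genes of the FOS and JUN families were counted in the bZIP list instead. There FOS, FOSL1, JUN and JUNB stood at 1.04, 0.49, 0.35 and 0.03, and FOSB, FOSL2 and JUND were under the filter. CDKN1A, the cyclin-dependent kinase inhibitor p21, stood at 0.79 (802 with miR-210, 504 with ncRNA), IER2 at 0.63 and ZFP36, which destabilises cytokine mRNAs, at 0.61. HMOX1, haem oxygenase and an oxidative stress gene, stood at -0.70 (81 with miR-210, 142 with ncRNA). EGR1, a classical immediate early factor, was under the filter at 24 and 12 in the same order; it was named after its values were seen.

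Beside XBP1, 3 kept genes had an ER stress element in a promoter: CANX, the lectin chaperone calnexin, at 0.51, HSPA5 at -0.33 and GLRA2 at 0.09. The element II was held by 12 kept genes, 5 of them above 0, with a median of -0.22. None of the 12 was 2-fold apart, where 6.21% of all kept genes were. Besides HERPUD1 they include the ER genes SDF2L1 at -0.75 and HYOU1 at 0.49. These motif groups were looked at after the data were seen, and no test was made on them.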
